A study of Mus musculus with 8 samples.

Results

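Fibronectin, the matricellular glycoproteins and the elastic fibre proteins were examined as a group of 9 genes in tibialis anterior (TA) muscle of Klotho-deficient mice. The genes are Fn1, Tnc, Thbs1, Thbs2, Postn, Sparc, Sparcl1, Fbn1 and Eln, taken by symbol from a table of 12551 counted genes, and all 9 were found in it. The study bred Klotho+/- mice on a mixed background to obtain wild-type (WT) and Klotho-null (KL-/-) littermates, and it asked how systemic Klotho deficiency changes muscle. RNA from the whole TA of 4 WT and 4 KL-/- males, all 7 weeks old and with no other treatment named, was sequenced, 1 library per mouse. The null allele is present in every tissue of a KL-/- mouse, so a muscle difference cannot be assigned to Klotho made by muscle. Klotho itself (Kl) is not among the counted genes, and genotypes rest on the sample labels.

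Fibronectin is an adhesive glycoprotein that cells assemble into fibrils through integrins, and collagens and other matrix proteins are laid down on it. Matricellular proteins (tenascin-C, the thrombospondins, periostin and SPARC) are secreted into the matrix and act mainly as modulators of cell adhesion and growth factor activity rather than as load-bearing parts. Elastic fibres consist of an elastin core on a scaffold of fibrillin microfibrils, which also hold latent TGF-beta. In muscle these genes are known to be expressed mostly by fibroblast-like cells of the connective tissue and by vascular cells, not by the myofibres, and tenascin-C is enriched at the tendon junction and after injury.

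The libraries held 20860262 to 29273758 counts on genes. No pair of libraries of a genotype was a duplicate, since the chi-square per gene between pairs was 9.91 or more. Values are counts in proportion to library size (CPM) scaled with TMM factors, which were 1.02 to 1.05 in WT and 0.950 to 0.980 in KL-/- libraries. Skeletal muscle identity was clear in every library, with Ckm (muscle creatine kinase) at 16755 CPM or more. The labels give 1 batch date to 7 libraries and a different one to KL-/- replicate 3, so values without that mouse are the within-batch values. Its batch and the mouse itself cannot be told apart.

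Sequence upstream of the annotated start is shown for Tnc, Thbs2 and Postn, because the same mouse, WT replicate 2, gave the highest level of all 3. RefSeq windows of 250 bases before a start were given for 5 of the 9 genes on GRCm38.p6, and these 3 were the ones whose nearest window overlapped no annotated exon. Capitals mark matches, on either strand, to TATAAA (the TATA box), to the CCAAT box, to GGGCGG (a box that Sp1 binds) or to the AP-1 type motif TGANTCA. The windows lie at chr4:64047016-64047265 (minus strand) for Tnc, chr17:14694263-14694512 (minus strand) for Thbs2 and chr3:54360857-54361106 (plus strand) for Postn.
Tnc: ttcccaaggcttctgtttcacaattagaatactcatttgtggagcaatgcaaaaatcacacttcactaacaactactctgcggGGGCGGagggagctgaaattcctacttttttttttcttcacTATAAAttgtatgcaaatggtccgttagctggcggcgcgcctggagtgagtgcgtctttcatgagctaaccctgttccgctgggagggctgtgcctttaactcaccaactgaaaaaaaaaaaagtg
Thbs2: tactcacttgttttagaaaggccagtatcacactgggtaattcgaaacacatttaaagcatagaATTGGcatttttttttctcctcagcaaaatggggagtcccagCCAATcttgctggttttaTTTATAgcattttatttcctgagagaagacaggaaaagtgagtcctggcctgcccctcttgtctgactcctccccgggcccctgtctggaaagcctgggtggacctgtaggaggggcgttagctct
Postn: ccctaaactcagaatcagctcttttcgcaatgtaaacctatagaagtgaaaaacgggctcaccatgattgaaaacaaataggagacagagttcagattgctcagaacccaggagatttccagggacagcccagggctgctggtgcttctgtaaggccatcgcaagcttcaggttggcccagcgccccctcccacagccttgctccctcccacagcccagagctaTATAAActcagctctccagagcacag

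Each of the 3 windows holds 1 match to TATAAA, which 12.4% of all 32851 RefSeq windows of this length hold. Of the 7 windows given for the 5 genes, 4 hold it, and those of Sparc and Fbn1 and a further one of Postn do not. In the windows shown, the match begins 26 bases before the start in Postn and 126 bases before it in both Tnc and Thbs2, where the Thbs2 match is on the opposite strand. Thbs2 has 2 matches to CCAAT, present in 33.9% of windows, and Tnc has 1 to GGGCGG, present in 32.7%. None of the 3 holds TGANTCA, found in 6.75% of windows. GC content was 44.8% in Tnc, 46.8% in Thbs2 and 52% in Postn, against a median of 52.4% over all windows. The matches describe these letters only.

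Of the 9 genes, 1 passed an FDR of 0.05 in the comparison of KL-/- with WT muscle (edgeR's quasi-likelihood test with adjustment over all 12551 genes). It was Fbn1, which fell. Over all genes, 6.67% were called lower and 7.35% were called higher by the same rule. Scaled by library totals without TMM factors, 16.9% of genes were called lower, and higher genes made up 18.8% of calls instead of 52.4%. The log2 fold change was negative for 8 of the 9 genes, Eln being the exception, and for 52.4% of all genes. Its median was −0.96 for the 9 genes and −0.016 for all genes tested. Without an adjustment for multiple testing, 4 of the 9 had a p under 0.05. These were Fn1, Tnc, Thbs2 and Fbn1.

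**Figure D1:**
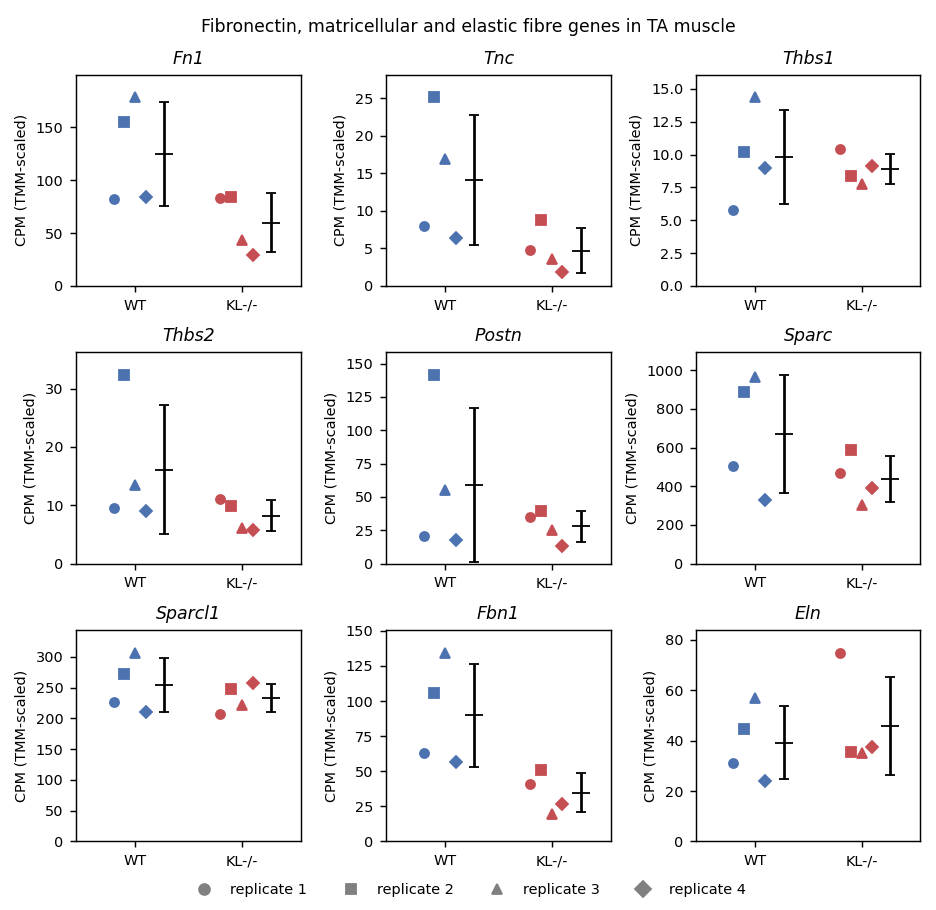
CPM (TMM-scaled) of each gene by genotype, 1 point per mouse with the replicate number as its shape, and the mean ± SD (n = 4) as the bar beside the points. Axes start at 0. Fbn1 is the gene whose genotypes do not overlap, and WT replicate 2 stands high for Tnc, Thbs2 and Postn.

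Fn1 (chr1:71585473-71653234 on mm10, minus strand) encodes fibronectin. Its level was 82.4, 155, 178 and 83.9 CPM in WT replicates 1 to 4 and 82.8, 83.6, 43.1 and 28.8 CPM in KL-/- replicates 1 to 4. The genotypes overlapped: KL-/- replicates 1 and 2 sat beside WT replicates 1 and 4, with 2 WT mice far above them and 2 KL-/- mice below. Means were 125 ± 49.1 CPM (WT) and 59.6 ± 27.9 CPM (KL-/-), each ± SD with n = 4, and differed by −1.07 ± 0.37 (SE) on the log2 scale with an FDR of 0.0831. Leaving out 1 library at a time gave log2 fold changes of −1.27 to −0.84, none past the threshold, and the within-batch value was −0.94 (FDR = 0.187). Of the other tests run on all 8 libraries, edgeR's likelihood ratio test (FDR = 0.0312) and its exact test (FDR = 0.0325) passed. The study also used edgeR and reported reduced Fn1 expression. It states that qRT-PCR bore out the changes of key transcripts (n = 4 per group), and it lists primers for Fn1. Its count of 2124 genes at an FDR under 0.05 equals that of the likelihood ratio test here. With libraries scaled by their totals in place of TMM factors, the lowest WT value was 84.4 and the highest KL-/- value was 81.1 CPM, so that the overlap between genotypes is within the difference between scalings.

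Tnc (chr4:63959785-64047015, minus strand) encodes tenascin-C, which weakens adhesion of cells to fibronectin. It was counted at 7.92, 25.1, 16.9 and 6.42 CPM in the WT and at 4.74, 8.73, 3.56 and 1.81 CPM in the KL-/- mice. The overlap came from KL-/- replicate 2, which lay above WT replicates 1 and 4. The mean of 14.1 ± 8.68 CPM in WT against 4.71 ± 2.94 CPM in KL-/- muscle gave the largest negative log2 fold change of the 9 genes, −1.59 ± 0.52, with an FDR of 0.0682. It passed the threshold without WT replicate 4 (FDR = 0.0466) or KL-/- replicate 2 (FDR = 0.0293), with library totals (FDR = 0.0453), and by edgeR's likelihood ratio (FDR = 0.0208) and exact (FDR = 0.0226) tests. A fit with the replicate number as a block also passed (FDR = 0.0246). The within-batch value was −1.48 (FDR = 0.155).

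Thbs1 and Thbs2 encode thrombospondins 1 and 2, related trimeric glycoproteins that inhibit angiogenesis, and thrombospondin-1 is known as an activator of latent TGF-beta. Thbs1 (chr2:118111922-118127133, plus strand) was at 5.76, 10.2, 14.4 and 8.97 CPM in WT and at 10.4, 8.35, 7.75 and 9.12 CPM in KL-/- mice. The KL-/- values all lay within the WT range. Its log2 fold change was −0.14 ± 0.23 (FDR = 0.714), and it turned to 0.10 without WT replicate 3.

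Thbs2 (chr17:14665500-14694262, minus strand) was at 9.51, 32.3, 13.5 and 9.04 CPM in WT and at 11, 9.88, 6.13 and 5.77 CPM in KL-/- muscle. WT replicate 2 stood far above every other library. The log2 fold change of −0.96 ± 0.41 (FDR = 0.142) became −0.38 without that mouse.

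Postn (chr3:54361107-54391041, plus strand) encodes periostin, which supports collagen fibril formation and is made by activated fibroblasts. No other gene of the 9 varied as much among the WT mice. The WT mice gave 21, 141, 54.9 and 18.0 CPM and the KL-/- mice 35.3, 39.2, 25.1 and 13.1 CPM. WT replicate 2 was 7.87-fold above WT replicate 4, whereas the KL-/- mice spanned 2.99-fold. The means of 58.8 ± 57.6 and 28.2 ± 11.7 CPM differed by −1.06 ± 0.62 on the log2 scale (FDR = 0.265), and by −0.15 without WT replicate 2. The 3 genes whose upstream windows are printed above thus all rest in part on this mouse.

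Sparc and Sparcl1 are the related members of the SPARC family, and SPARC binds collagen and is needed for its normal deposition. Sparc (chr11:55394159-55420080, minus strand) was the most abundant of the 9 genes per length of transcript, at 254 CPM per kb in WT and 166 CPM per kb in KL-/- muscle. The single libraries held 505, 885, 965 and 327.5 CPM in WT and 470.4, 585, 304 and 389.5 CPM in KL-/- mice. WT replicates 2 and 3 were above all KL-/- mice and WT replicate 4 was below 3 of the 4. The log2 fold change was −0.62 ± 0.32 (FDR = 0.219), with −0.39 without WT replicate 3 and −0.84 without WT replicate 4.

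Sparcl1 (chr5:104079109-104114088, minus strand), whose product is also called hevin and is abundant in blood vessels, varied least. It was at 226, 271, 307 and 210.2 CPM in WT and at 206, 247, 221 and 257 CPM in KL-/- muscle. The genotypes overlapped, with WT replicates 2 and 3 above the highest KL-/- mouse, and the log2 fold change was −0.12 ± 0.12 (FDR = 0.520). Within a library, the log2 ratio of Sparc to Sparcl1 counts was 1.16, 1.71, 1.65 and 0.64 in WT and 1.19, 1.24, 0.46 and 0.60 in KL-/- mice. The difference of −0.42 was within the spread (two-sided exact permutation test, p = 0.257, adjusted p over 3 ratios = 0.257).

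Fbn1 (chr2:125300594-125506438, minus strand) encodes fibrillin-1, the main microfibril protein. Its level was 62.8, 105, 134 and 56.6 CPM in WT and 40.9, 51.0, 19.7 and 27.0 CPM in KL-/- muscle. All 4 KL-/- mice were below all 4 WT mice, the closest being KL-/- replicate 2 and WT replicate 4. Of all genes, 9.47% had such a gap with KL-/- lower and 10.2% with KL-/- higher. The mean of 89.8 ± 36.8 CPM in WT was 2.59-fold that of 34.7 ± 14.0 CPM in KL-/- muscle, and the log2 fold change was −1.37 ± 0.34 (FDR = 0.0295).

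The call on Fbn1 was close to the threshold. Leaving out single libraries gave log2 fold changes of −1.61 to −1.11 with FDRs of 0.0154 to 0.0856. The FDR was above 0.05 without WT replicate 2 (0.0759) or 3 (0.0782), and without KL-/- replicate 1 (0.0522), 3 (0.0675, the within-batch value) or 4 (0.0856).

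Eln (chr5:134702596-134747254, minus strand) encodes tropoelastin, the precursor of the elastin core, and was the gene of the group with a positive log2 fold change. It was at 31.2, 44.7, 56.9 and 24.0 CPM in WT and at 74.9, 35.6, 34.9 and 37.5 CPM in KL-/- muscle. KL-/- replicate 1 was above every other library, and the other 3 KL-/- mice lay together inside the WT range. The log2 fold change was 0.22 ± 0.31 (FDR = 0.652) and was −0.12 without KL-/- replicate 1. That library was also the highest for 4 of 10 mural cell markers (Acta2, Myh11, Kcnj8 and Cnn1) and for 4 of 5 adipocyte markers (Adipoq, Cfd, Cidec and Retn), while the summed mural level was higher in WT replicate 3 (981 CPM) than in it (912 CPM). The part of these cells in its Eln level was not tested.

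Elastin core and microfibril scaffold were also compared within each library, where scaling plays no role. This ratio sets the gene with a positive log2 fold change against the gene called lower, so it restates in part the fall of Fbn1. The log2 ratio of Eln to Fbn1 counts was −1.01, −1.24, −1.24 and −1.24 in WT replicates 1 to 4, a narrow range. It was 0.87, −0.52, 0.82 and 0.47 in KL-/- replicates 1 to 4, above WT in every mouse. The means of −1.18 ± 0.11 and 0.41 ± 0.65 differed by 1.59, with p = 0.0286 by the same exact permutation test, which can give no smaller p with 4 against 4. After adjustment over the 3 ratios tested p was 0.0857, which does not pass 0.05. The difference was 1.44 without KL-/- replicate 1, the library with the high Eln, and 1.46 within the batch of 7. The log2 ratio of Thbs1 to Thbs2 was −0.72, −1.66, 0.087 and −0.011 in WT and −0.080, −0.24, 0.34 and 0.66 in KL-/- muscle. It overlapped between genotypes, with a difference of 0.75 (p = 0.171, adjusted p = 0.257, same exact permutation test) that was 0.39 without WT replicate 2.

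**Figure D2:**
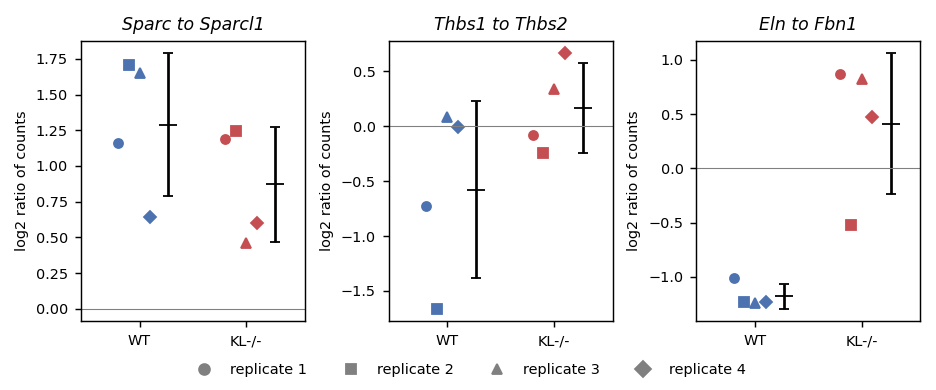
Log2 ratio of counts within a library for Sparc to Sparcl1, Thbs1 to Thbs2 and Eln to Fbn1, by genotype, with 1 point per mouse and the mean ± SD (n = 4) as the bar. The 4 WT mice sit between −1.24 and −1.01 for Eln to Fbn1, below all KL-/- mice.

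Libraries of a genotype were not alike, and the same mice were high or low for many of the genes. WT replicate 3 was among the 2 highest libraries for all 9 genes and the highest for 5. WT replicate 2 was among the 2 highest for 7. At the other end, KL-/- replicate 4 was the lowest library for 4 genes (Fn1, Tnc, Thbs2 and Postn) and KL-/- replicate 3 for 2 (Sparc and Fbn1). WT replicates 1 and 4 were never among the 2 highest. Within the batch of 7 libraries, the log2 fold changes not yet given were −0.078 for Thbs1, −0.85 for Thbs2, −1.01 for Postn, −0.48 for Sparc, −0.099 for Sparcl1 and 0.33 for Eln. None of these 6 passed the threshold there (FDR of 0.279 or more).

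**Figure D3:**
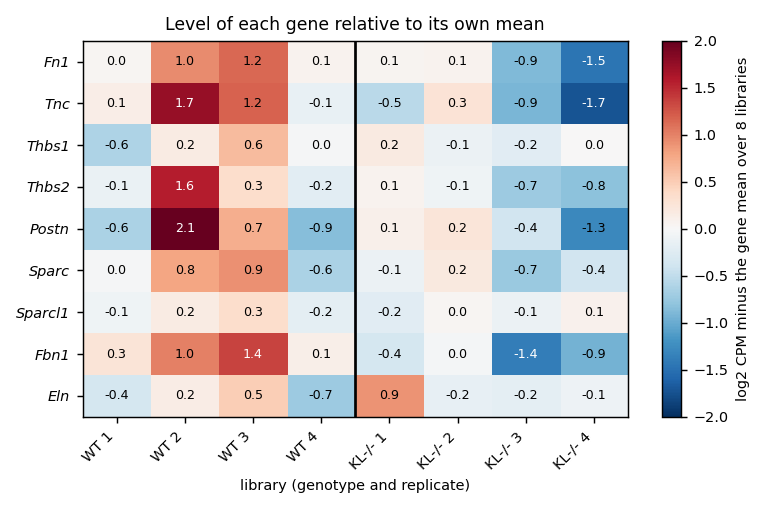
Level of each gene (rows) in each library (columns) as log2 CPM minus the mean of that gene over the 8 libraries, with values printed to 1 decimal. WT replicates 2 and 3 are positive in all rows, and KL-/- replicates 3 and 4 are negative or near 0 in most.

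The likeness of profiles was measured as the root mean square (RMS) difference of centred log2 CPM over the 8 libraries, a description in which all genes share libraries and scaling. Fn1 was closest to Fbn1 among the 9, at 0.312. Tnc was closest to Fn1, at 0.381. Thbs1 was closest to Sparcl1, at 0.274, and Eln was closest to Thbs1, at 0.370. Postn and Thbs2 lay 0.438 apart. The group therefore held profiles with large differences between libraries (Fn1, Tnc, Fbn1, Thbs2 and Postn) and flatter ones (Thbs1 and Sparcl1). In between, centred values ran from −0.73 to 0.89 for Eln and from −0.75 to 0.92 for Sparc. Sparc was closest to Thbs2, at 0.423.

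Outside the 9 genes, the 5 whose profile was closest to that of Fn1 were C1qa, Col18a1, Sox4, Nov and Mpeg1, with RMS differences of 0.190 to 0.250. C1qa, a complement component made by macrophages, was at 6.57, 11.1, 14.8 and 6.31 CPM in WT and at 6.87, 6.82, 3.85 and 2.98 CPM in KL-/- mice. Like Fn1 it missed the threshold, at −0.92 on the log2 scale (FDR = 0.0999). Col18a1, a basement membrane collagen, and Mpeg1, a macrophage perforin, had log2 fold changes of −0.83 (FDR = 0.106) and −1.0 (FDR = 0.0516). Sox4, a transcription factor, and Nov, a matricellular protein of the CCN family, fell by 1.02 (FDR = 0.0459) and 1.27 (FDR = 0.0431) on the log2 scale. Ranking by library totals gave the same 5 genes.

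Of 22 other matricellular genes listed, 19 were measured. At an FDR of 0.05, 3 of them fell, 1 rose and 15 did not pass, against 6.67% lower and 7.35% higher over all genes. Their median log2 fold change was −0.61. Ecm1, a secreted glycoprotein of the extracellular matrix, fell by 1.17 (FDR = 0.00598), from 17.0 to 21.3 CPM in WT to 6.75 to 12.2 CPM in KL-/- muscle. Thbs4, the thrombospondin of muscle and tendon matrix, fell by 0.92 (FDR = 0.0387), from 109 to 128 CPM to 30.9 to 83.3 CPM. Nov is described above. The gene that rose was Ctgf, a CCN family member and a known TGF-beta target, with a log2 fold change of 0.62 (FDR = 0.0238) and 11 to 16.1 CPM in WT against 17.2 to 24.0 CPM in KL-/- muscle. The genotypes of all 4 were without overlap, which adds no support because they were picked by FDR on the same values. Of the 19, 3 lay lower and 2 higher without overlap, against 9.47% and 10.2% of all genes.

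Of 22 partners of elastic fibres and microfibrils listed, 21 were measured, of which 5 fell, against 6.67% of all genes. None rose, either here, at an unadjusted p under 0.05 or under the 10 alternatives, with 20 of the 21 log2 fold changes below 0 and a median of −0.68. Efemp1 (fibulin-3) fell by 1.35 (FDR = 0.0159) and Fbln7 (fibulin-7) by 1.93 (FDR = 0.0261). Emilin1, an elastin-associated glycoprotein, fell by 0.89 (FDR = 0.0330). Loxl1, a lysyl oxidase that cross-links elastin, fell by 0.88 (FDR = 0.0437). Emilin2, named after its value was seen, fell by 1.23 (FDR = 0.0485). With single libraries left out, 1 partner fell without WT replicate 2 or 3 or KL-/- replicate 3 (the within-batch value) or 4, 2 without KL-/- replicate 1, 5 without WT replicate 1, and 8 without WT replicate 4 or KL-/- replicate 2.

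Of 15 integrins, syndecans and other cell-surface receptors measured, 1 fell, a share like that of all genes (6.67%), and the median was −0.094. None was higher here, at an unadjusted p under 0.05 or under the 10 alternatives. Itgav, the integrin alpha-V chain that binds fibronectin, periostin and fibrillin-1, fell by 0.56 (FDR = 0.0144), from 37.0 to 46.4 CPM in WT to 26.3 to 35.6 CPM in KL-/- muscle. Next came Stab1, a scavenger receptor that takes up SPARC, at −0.42 (FDR = 0.0705). Among 12 TGF-beta ligands, receptors and target genes the median was −0.092. At an FDR of 0.05, 1 fell and 1 rose, close to the shares over all genes (6.67% and 7.35%). Smad3, which carries the TGF-beta signal to the nucleus, fell by 0.43 (FDR = 0.0165). Smad4, its common partner, rose by 0.33 (FDR = 0.0273).

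All 9 fibril-forming collagens had log2 fold changes below 0, with a median of −1.27, but 1 passed the threshold. Of all genes, 6.67% were called lower. Col5a3 fell by 1.36 (FDR = 0.0486) and Col5a2 followed at −1.16 (FDR = 0.0880). Summed levels of the 9 collagens spanned 705 to 3583 CPM in WT and 444 to 1586 CPM in KL-/- muscle, and WT replicates 2 and 3 were the highest libraries, as they were for Fn1. Ecm1, Efemp1, Itgav and Smad3 passed in all 8 fits with 1 library left out, whereas Ctgf, Thbs4, Nov, Fbln7, Emilin1, Loxl1, Smad4 and Col5a3 passed in 2 to 4 of them. Within the batch of 7 libraries these 8 were all above the threshold (FDR of 0.0525 to 0.108), and the 4 genes named first were the pathway genes still called lower, of 11 in all 8 libraries.

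**Figure D4:**
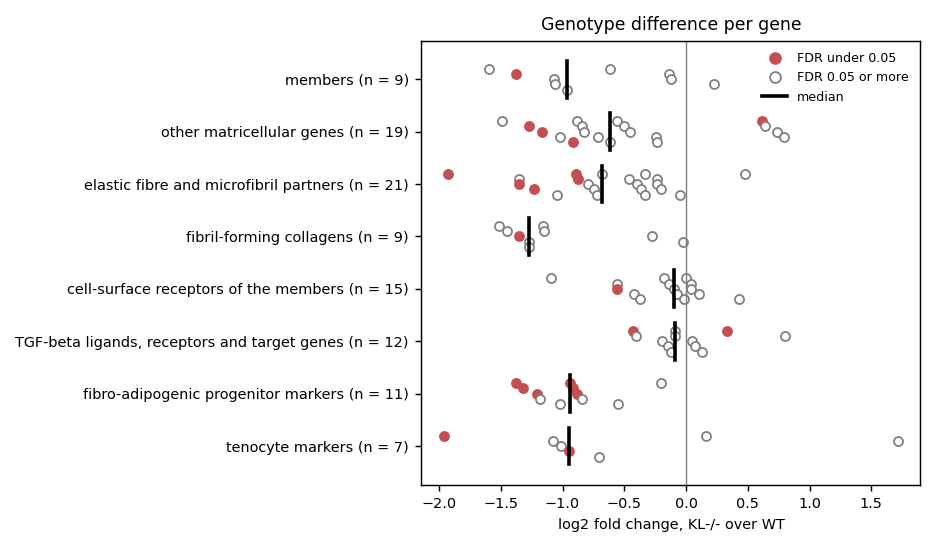
Log2 fold change (KL-/- over WT) of each measured gene by list, filled where the FDR is under 0.05, with the median of the list as the black line. The 9 genes described here are the row "members". Elastic fibre partners and collagens lie mostly to the left of 0, and receptors and TGF-beta genes lie around it.

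Among markers of other cell types, those of fibroblast-like cells differed between genotypes and those of vascular cells mostly did not pass the test. In whole muscle, fewer cells of a type and less RNA per cell cannot be told apart. For comparison with the marker counts, 6.67% of all genes were called lower and 7.35% higher. Of 11 markers of fibro-adipogenic progenitors, the fibroblast-like cells of muscle, 6 fell and all 11 log2 fold changes were below 0. Pdgfra, the receptor that defines them, was at −0.84 (FDR = 0.11) and Ly6a at −0.21 (FDR = 0.456). Their summed level was 1025 to 1575 CPM in WT and 482 to 965 CPM in KL-/- libraries, without overlap and with no marker at 0 in any library. The list includes matrix genes of its own (Dcn, Dpt, Lum and Col15a1).

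Tenocyte markers were lower for 2 of 7 genes (Kera and Fmod), with Tnmd at −1.01 (FDR = 0.163), Scx at 0.16 (FDR = 0.563) and sums of 76.8 to 138 CPM in WT and 46.5 to 153 CPM in KL-/- muscle. The overlap of these sums came from the immediate early gene Egr1, at 126 CPM in KL-/- replicate 4 and at most 16.1 CPM elsewhere. Without it, a choice made after the values were seen, the sums were 70.1 to 122 and 26.5 to 66.8 CPM. Macrophage markers were lower for 2 of 10 (Adgre1 and Itgam), with Csf1r at −1.02 (FDR = 0.0816) and sums of 67.0 to 140 CPM in WT and 48.0 to 83.5 CPM in KL-/- muscle. Endothelial markers were lower for 1 of 10 (Kdr), near the share over all genes (6.67%). They had sums of 551 to 828 and 522 to 574 CPM, with Pecam1 at −0.059 (FDR = 0.744) and Cdh5 at −0.35 (FDR = 0.0787). Mural cell markers passed edgeR's quasi-likelihood test for 0 of 10, with 0 also at an unadjusted p under 0.05, and had sums of 725 to 981 and 819 to 912 CPM.

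Schwann cell markers were higher for 3 of 8, where 7.35% of all genes were called higher. Their sums were 59.4 to 104 CPM in WT against 111 to 132 CPM in KL-/- muscle. Adipocyte markers were higher for 1 of 5 (Fabp4), with Adipoq at 1.45 (FDR = 0.218), Cfd at 1.20 (FDR = 0.258) and sums of 185 to 216 against 216 to 293 CPM. Most of these sums was Fabp4 alone, at 177 to 197 CPM in WT and 203 to 242 CPM in KL-/- muscle. The other adipocyte markers measured overlapped between genotypes. Myofibre markers passed the same test for 0 of 8, with 2 (Myh4 and Ttn) at an unadjusted p under 0.05. They summed to 140716 to 159730 CPM in WT and 172706 to 220907 CPM in KL-/- libraries, with Ckm at 0.25 (FDR = 0.300) and Acta1 at 0.060 (FDR = 0.840). Of 5 erythroid markers Alas2 was measured, at 0.12 (FDR = 0.868). The part of these cell markers in the levels of the 9 genes was not tested.

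Each gene was then set against the mean log2 CPM of the 11 fibro-adipogenic markers in the same library, a measure chosen after the values were seen and given without a test. That mean was 0.98 lower in KL-/- than in WT muscle. The difference between genotypes went from −1.12 to −0.14 for Fn1, from −1.58 to −0.60 for Tnc and from −1.38 to −0.39 for Fbn1. All 3 overlapped between genotypes on this scale, Fbn1 included, as did Thbs2, Postn and Sparc. Thbs1, Sparcl1 and Eln lay higher in KL-/- muscle without overlap. The marker mean itself lay lower in KL-/- muscle without overlap, so a gene that hardly changed can separate on this scale. The share of all genes that do so is not given, and nothing is concluded from these 3. Every gene moves by the same 0.98 under this subtraction. The smaller falls of Fn1, Tnc and Fbn1 and the signs of the others (0.16 for Thbs2 to 1.20 for Eln) thus follow from the lower marker level. The shift says nothing of the single gene.

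**Figure D5:**
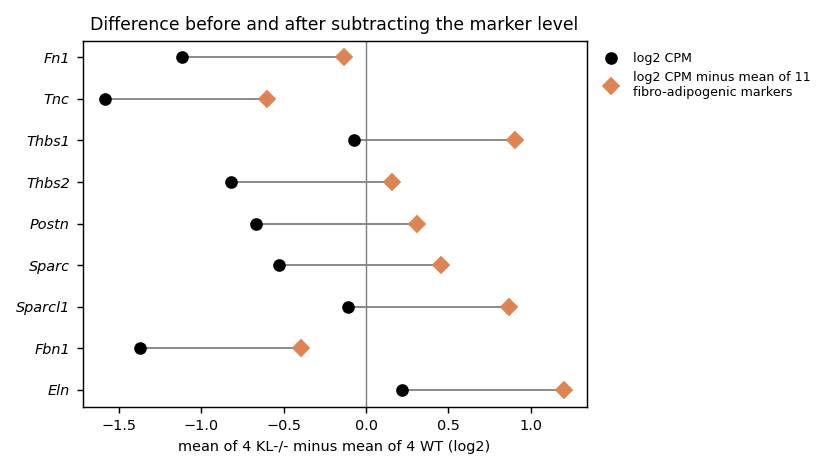
Difference between genotypes (mean of 4 KL-/- minus mean of 4 WT mice) in log2 CPM, as circles, and in log2 CPM minus the mean of 11 fibro-adipogenic progenitor markers, as diamonds. By construction every gene shifts to the right by the same 0.98, which puts Fn1 at −0.14 and Eln at 1.20.

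Of the 9 genes, 6 share bases with a gene on the opposite strand in GENCODE M21, and whether strand was used in the counting is not given in the sources used here. The shared exon bases were 2.48% (Tnc) to 6.45% (Sparcl1), with 4.55% for Fbn1 (Gm9913) and 3.87% for Fn1 (Apol7d). Reads of both genes cannot be told apart there if strand was not used. Thbs2, Postn and Sparc had no such overlap.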

How the data were processed

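The analysis started from the deposited table of whole-number counts per gene, 1 column for each of 4 WT and 4 KL-/- TA muscles. To make it, the authors used STAR with the mm10 genome, dropped alignments of low quality and ran featureCounts. Annotation and use of strand are not given in the sources used here. Libraries were made from 100 ng of RNA, as mRNA in the methods and as total RNA in the labels.

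Counts were fitted in R 4.3.3 with edgeR 4.0.16 (TMM factors, genotype as the only term, quasi-likelihood test, Benjamini-Hochberg adjustment over 12551 genes, FDR under 0.05). No gene was removed by edgeR's low-count filter. SEs come from the test statistic. Counts of the 9 genes ranged from 48 to 25308, and 3 counts correspond to 0.102 to 0.144 CPM. Ratios were compared over the 70 relabelings of the libraries. Alternatives used DESeq2 1.42.0 and limma 3.58.1, among others. The fit was tested on simulated data.

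The 9 genes and all lists were chosen with earlier results of these data known. Named are the 9, the up to 4 genes of each pathway list with the smallest FDR among those past the threshold (or the 2 with the smallest FDR where fewer than 2 passed), the first 2 measured genes of each marker list, of which those of the Schwann cell list are not reported here, and the 5 genes most like Fn1. Emilin2 and the other called markers were named after their values were seen. Wisp and Ccn genes were matched by older symbols, and Tnr, Tnn, Spock1, Emilin3, Itgb8 and 6 markers were not measured. Nothing beyond the labels says that replicate numbers pair mice (the check is with the alternatives). Protein sequences were not used here.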

Additional observations from a re-analysis of the deposited data

Results flagged for a closer look

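Dixon's test for a value far from the others was applied to 82 groups of 4 libraries, and 3 values stood apart, where chance flags about 1 in 20 groups. Eln in KL-/- replicate 1, at 74.9 CPM, was far above the other 3 KL-/- mice (gap over range 0.937), and without it the log2 fold change of Eln turned from 0.22 to −0.12. The log2 ratio of Eln to Fbn1 in WT replicate 1, at −1.01, stood apart from the other 3 WT mice, which all lay at −1.24. The adipocyte marker Cfd was at 18.6 CPM in WT replicate 4, above the other WT mice.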

How the results depend on the processing

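Of the 9 genes, Fbn1 passed an FDR of 0.05 under 9 of 10 alternatives, Tnc under 4 and Fn1 under 2, and the other 6 under none. The fit without a low-count filter, 1 of the 10, is the same as the main fit and adds no support. The count of the 9 past the threshold, 1 in the main analysis, was 3 with the likelihood ratio and exact tests of edgeR and 2 with library totals. Pathway list members that fell, 11 in all, numbered 20 with either of those tests, 18 with DESeq2 and 21 with library totals, and those that rose, 2 in all, numbered 5, 4, 4 and 1. Calls over all 12551 genes, 1759 in the main analysis, also rose, to 2124, 2077, 2456 and 2619 in the same order. With library totals the median over all genes shifted from −0.016 to −0.13 on the log2 scale and the share of calls that were higher from 52.4% to 18.8%. With these totals 16.9% of all genes were called lower. Under that scaling 2 of the 9 genes (Fn1 and Fbn1) had no overlap, and the share of all genes without overlap is not given for it. The filter of 10 counts in every sample, RLE factors, the edgeR 3 test and limma-voom kept each of these counts within 1.5 times.

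Leaving out 1 library at a time gave 762 (without KL-/- replicate 3) to 2755 (without KL-/- replicate 2) genes past the threshold against 1759, 0 to 2 of the 9 genes past it, 4 to 17 pathway genes lower and 0 to 4 higher, and 1 to 2 of the 9 without overlap. The share of all genes without overlap is not given for these subsets. The median of the 9 ranged from −1.16 to −0.38 (without WT replicate 2). Thbs1 ranged from −0.33 (without WT replicate 1) to 0.10 (without WT replicate 3) and Eln from −0.12 (without KL-/- replicate 1) to 0.46 (without WT replicate 3), both turning sign. The ratio differences ranged from −0.63 to −0.28 for Sparc to Sparcl1, from 0.39 to 0.97 for Thbs1 to Thbs2 and from 1.44 to 1.90 for Eln to Fbn1. With 1 library left out, no adjusted p of a ratio (exact permutation test) passed 0.05. It was 0.0857 to 0.171 for Eln to Fbn1 and 0.171 or more for the other ratios.

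Deviations of same-numbered libraries from their group means correlated at −0.16, 0.19, −0.40 and 0.015. Differently numbered libraries were not compared, so this cannot settle whether replicate numbers pair the mice. With the replicate number as a block, 671 genes passed, with 5 pathway genes lower and 1 higher. Among the 9 genes Tnc passed (FDR = 0.0246) and Fbn1 did not (FDR = 0.0601). The ratios gave exact sign-flip p-values, adjusted over 3, of 0.1875 to 0.25. With so few pairs of libraries this test can give no p under 0.05, whatever the values. It therefore cannot decide whether a ratio differs between genotypes under this pairing, and nothing is concluded from it. The causes of these changes were not tested.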
